A study of Mus musculus with 4 samples.

Results

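The regions described here are stretches of open chromatin at the ends of protein-coding genes that were called in both samples of CD4+ CD8+ double-positive (DP) thymocytes and in neither sample of CD4- CD8- double-negative (DN) thymocytes. They were chosen by their presence in the peak lists, so their absence from DN cells is the rule and not a finding. Peaks of the 4 deposited lists were merged into 107607 regions on chromosomes 1 to 19 and X, and 2111 of these regions met the rule: a peak in DP 1 and DP 2, none in DN 1 or DN 2, and a midpoint within 1 kb of an end of a RefSeq protein-coding gene span (mm10). They lie at 2364 genes. Below they are called DP-only gene-end regions.

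The 4 samples were thymocytes from C57BL/6J wild-type mice, 5 to 7 weeks of age, sorted fresh from the thymus and processed at once, and assayed by ATAC-seq, in which a transposase cuts and tags open DNA. The 2 DN samples were sorted as CD25+ with CD44 either low or high, so they cover more than 1 DN stage, and the 2 DP samples were sorted as CD4+ CD8+. The series as a whole studies antigen receptor enhancers in wild-type and in Igk and Tcrb enhancer-deficient lymphocytes; no deficient cells were used here. The labels do not name separate animals for the 2 samples of a group, and their spread may be technical only.

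As background, a gene start is usually free of nucleosomes when the gene is active or poised, and starts in CpG-rich DNA are often open in most cell types. Thymocytes pass from the DN to the DP stage after a functional T cell receptor beta chain is made. They then turn on CD4 and CD8, stop cycling after a burst of division, and rearrange the alpha chain. T cell genes named below include the CD8 chains, the CD3 chains of the receptor complex, and the kinases Lck and Zap70, which carry the receptor signal into the cell.

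Sequence is shown for the 7 genes of the 3 thymocyte gene lists whose start is in the RefSeq promoter table (GRCm38.p6) and is covered by a DP-only gene-end region, and for Txnip as a CpG-rich start among the best ranked regions. Txnip encodes a regulator of glucose uptake and redox state. Each line gives the 250 bases before the start, 5′ to 3′ on the gene's strand. Capitals mark the ETS core GGAAG, the RUNX motif TGTGGT, the E protein E-box CAGCTG, the CCAAT box and the SP and KLF box GGGCGG, each with its reverse complement.
Cd8a (chr6:71373177-71373426, plus strand): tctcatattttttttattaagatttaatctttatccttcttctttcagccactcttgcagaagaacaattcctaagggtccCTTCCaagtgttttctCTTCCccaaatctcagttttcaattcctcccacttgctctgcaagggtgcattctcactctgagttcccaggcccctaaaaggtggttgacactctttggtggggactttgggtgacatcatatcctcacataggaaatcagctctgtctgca
Cd3g (chr9:44980432-44980681, minus strand): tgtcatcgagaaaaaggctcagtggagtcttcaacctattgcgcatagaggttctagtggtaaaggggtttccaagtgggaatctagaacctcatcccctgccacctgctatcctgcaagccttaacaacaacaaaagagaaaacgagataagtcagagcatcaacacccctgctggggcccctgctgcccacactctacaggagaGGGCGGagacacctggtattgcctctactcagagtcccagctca
Lck (chr4:129573642-129573891, minus strand): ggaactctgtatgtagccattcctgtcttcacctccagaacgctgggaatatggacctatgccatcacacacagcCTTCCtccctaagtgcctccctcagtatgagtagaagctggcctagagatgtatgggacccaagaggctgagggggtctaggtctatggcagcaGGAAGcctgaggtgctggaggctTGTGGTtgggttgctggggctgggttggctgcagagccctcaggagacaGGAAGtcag
Zap70 (chr1:36761548-36761797, plus strand): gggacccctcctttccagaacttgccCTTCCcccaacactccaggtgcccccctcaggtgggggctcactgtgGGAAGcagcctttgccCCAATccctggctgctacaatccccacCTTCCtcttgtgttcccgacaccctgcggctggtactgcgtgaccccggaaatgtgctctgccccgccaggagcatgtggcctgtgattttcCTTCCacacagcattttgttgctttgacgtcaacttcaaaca
Ubash3a (chr17:31207816-31208065, plus strand): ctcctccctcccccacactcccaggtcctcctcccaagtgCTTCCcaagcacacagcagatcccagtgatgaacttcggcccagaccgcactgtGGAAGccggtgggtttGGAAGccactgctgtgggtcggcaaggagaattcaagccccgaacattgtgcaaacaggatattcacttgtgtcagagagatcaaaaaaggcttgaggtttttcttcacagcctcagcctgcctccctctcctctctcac
Ets2 (chr16:95702157-95702406, plus strand): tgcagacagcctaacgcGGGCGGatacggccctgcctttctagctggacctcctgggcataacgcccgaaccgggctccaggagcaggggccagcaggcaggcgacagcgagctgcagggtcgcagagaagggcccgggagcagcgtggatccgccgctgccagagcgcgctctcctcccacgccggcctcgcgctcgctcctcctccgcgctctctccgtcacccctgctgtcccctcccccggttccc
Myb (chr10:21160985-21161234, minus strand): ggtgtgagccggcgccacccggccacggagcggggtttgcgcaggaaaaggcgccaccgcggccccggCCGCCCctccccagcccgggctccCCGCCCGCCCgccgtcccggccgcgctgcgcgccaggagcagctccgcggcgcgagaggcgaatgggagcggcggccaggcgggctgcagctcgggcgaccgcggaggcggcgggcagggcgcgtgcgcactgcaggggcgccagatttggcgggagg
Txnip (chr3:96557707-96557956, plus strand): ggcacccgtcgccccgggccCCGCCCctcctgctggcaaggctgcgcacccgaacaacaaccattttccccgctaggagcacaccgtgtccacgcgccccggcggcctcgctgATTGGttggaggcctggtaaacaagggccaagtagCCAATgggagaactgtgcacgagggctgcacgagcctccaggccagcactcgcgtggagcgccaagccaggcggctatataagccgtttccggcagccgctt

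Among these 8 starts, Cd8a, Lck, Zap70 and Ubash3a carried 2, 3, 4 and 3 ETS cores and no GGGCGG box, and Cd3g carried 1 GGGCGG box and no ETS core. Lck also had the single RUNX match, and Zap70 had 1 CCAAT box. Ets2 had 1 and Myb had 3 GGGCGG boxes, and Txnip had 1 GGGCGG box and 2 CCAAT boxes. The observed over expected CpG ratio, which is near 1 where CpG has not been lost, was 0 at Cd8a, 0.0514 at Lck, 0.242 at Cd3g, 0.271 at Ubash3a and 0.296 at Zap70. It was 0.796 at Ets2, 0.795 at Txnip and 0.975 at Myb. Of all 21045 protein-coding starts in the table, 65.0% held GGAAG, 12.2% TGTGGT, 12.2% CAGCTG, 35.6% CCAAT and 43.1% GGGCGG in the same window. A match is a run of letters, not a bound site.

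DN 1 and DN 2 had 38808 and 33131 deposited peaks, DP 1 had 39718 and DP 2 had 70385. Read counts are not part of the lists: the depth is unknown, and no peak and too few reads cannot be told apart. Of the 7 defining genes fixed for the DP stage, 5 and 6 had a gene-end peak in DP 1 and DP 2, and only Rag1 and Rag2, the recombinase genes, had one in each DN list. Of 6 genes fixed for CD25+ DN cells, DN 1 held 4, among them Il2ra, which encodes CD25, and Ptcra, which encodes the pre-receptor chain that pairs with the beta chain. DN 2 held 0 of these 6, while DP 1 held 2 and DP 2 held 5. The genes of the DN sort markers, Il2ra and Cd44, thus had no gene-end peak in DN 2. Of the longer gene list of the CD25+ DN stage used below, DN 2 did hold gene ends of other genes. These were Il7r, Kit, Bcl11a and Cd24a (ranks 16.7, 24.5, 10.3 and 32.1), which DN 1 and at least 1 DP list also held. B cell, myeloid and thymic stroma markers (4 genes each) had no gene-end peak in any list.

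DP-only regions made up 7.44% of all merged regions and 17.2% of the 12293 gene-end regions. Of the 8502 gene-end regions held by both DP lists, 24.8% had no DN peak, 2284 were held by 1 DN list as well, and 4107 were held by all 4 lists. Away from gene ends the share was higher: 5892 of 13665 regions held by both DP lists, or 43.1%, had no DN peak. Only 197 gene-end regions were held by both DN lists and neither DP list. The size of the class depended on single lists. Leaving out a list, here and below, removes 1 condition of the rule, so a rise in the count is built in. With DN 2 alone standing for the DN cells, that is without DN 1, 4156 gene-end regions were DP-only (35.3%, at 4588 genes), and without DP 1 there were 3601 (30.9%, at 3728 genes). Without DP 2 the share was 27.2%.

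The regions sat mainly on gene starts. The strand was known for 1703 of them through the promoter table; 1550 (91.0%) lay at a start and 153 (8.98%) at the far end of the gene. The midpoint was 121.5 bp from the gene end in the median region, and 70.1% lay within 250 bp. Gene-end regions held by all 4 lists were at a start in 97.5% of cases and within 250 bp in 80.9%, and the 197 DN-only ones in 83.3% and 50.3%. Thus 78.3% of DP-only regions with known strand covered a listed start, against 94.1% of those held by all lists, 86.9% of those with 1 DN list and 53.8% of DN-only ones. Their median width was 650 bp, against 900 bp for regions held by all lists. A region lay at 2 or more genes in 333 cases (15.8%, against 16.2% for regions held by all lists). Of the 246 regions at 2 genes of known strand, 167 lay at 2 starts, 69 at a start and a far end, and 10 at 2 far ends.

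**Figure D1:**
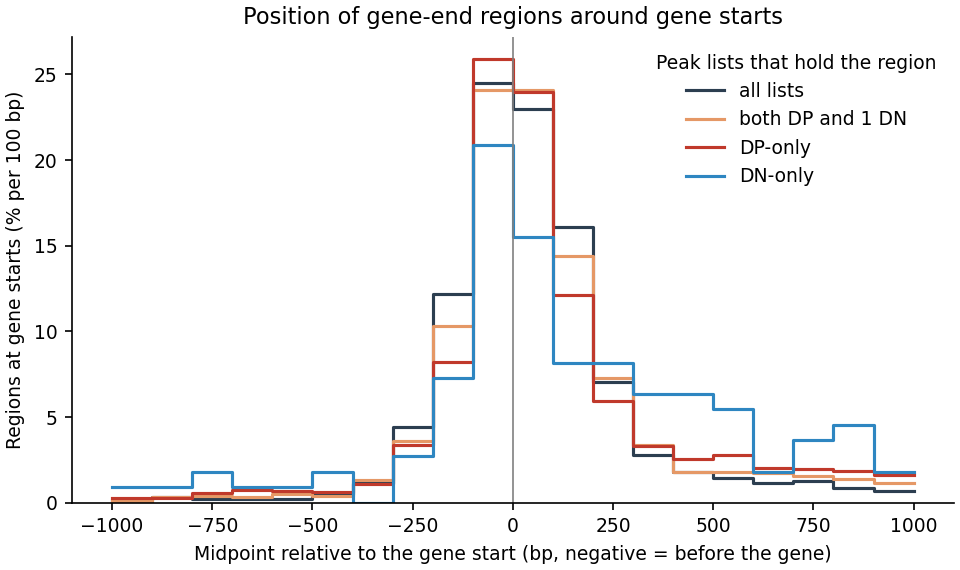
Distance of the region's midpoint from the gene start (bp, negative before the gene) for gene-end regions at starts of known strand, as a percent of regions per 100 bp, by the peak lists that hold the region. All classes held by DP lists peak at the start with a median offset of 25.5 to 29.5 bp, and DN-only regions, of which 110 are plotted, spread farther into the gene (median 62.5 bp).

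At the threshold of 1 kb, the regions just inside were those at Stat5a, Dlgap3 and Rpia (999.5, 996.5 and 994.5 bp), and those just outside were at Impg1, Cog1 and Ccin (1002.5, 1002.5 and 1003.5 bp). DP-only regions numbered 52 from 900 to 1000 bp and 54 from 1000 to 1100 bp, so the edge cut through an even spread. On the DN side, a DN peak touched 13 of the 2111 regions without sharing a base, among them those at Rffl, Rpp30 and Vav1. A DN peak lay within 1000 bp of 188 regions (8.91%) and within 10000 bp of 687 (32.5%). The median gap was 21050 bp.

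In the DP lists these were mostly middling peaks. The authors' p-value was turned into a percentile rank within each list, where a low rank means a small p and tied values share their mean rank. The median rank was 37.1 in DP 1 and 21.9 in DP 2, against 8.04 and 2.22 for gene-end regions held by all 4 lists and 21.5 and 11.9 for those with 1 DN list. Only 60 of the 2111 were in the top 10% of both DP lists. Of 4107 gene-end regions held by all lists, 1628 had the smallest p (1e-12) in both DP lists; of the 2111 DP-only ones, 11 did.

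The share without a DN peak followed the DP rank. Among gene-end regions with a mean DP rank of 5 or less, 0.789% had no DN peak. From 10 to 20 the share was 19.8%, from 30 to 40 it was 52.4%, and above 50 it was 69.5%. Away from gene ends the same ranges gave 5.03, 24.7, 49.0 and 64.8%. Below a rank of 20 gene-end regions were thus DP-only less often than regions elsewhere, and above it slightly more often. Peak strength in the DP lists moves with membership, and what part weak signal and depth have in it was not tested.

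**Figure D2:**
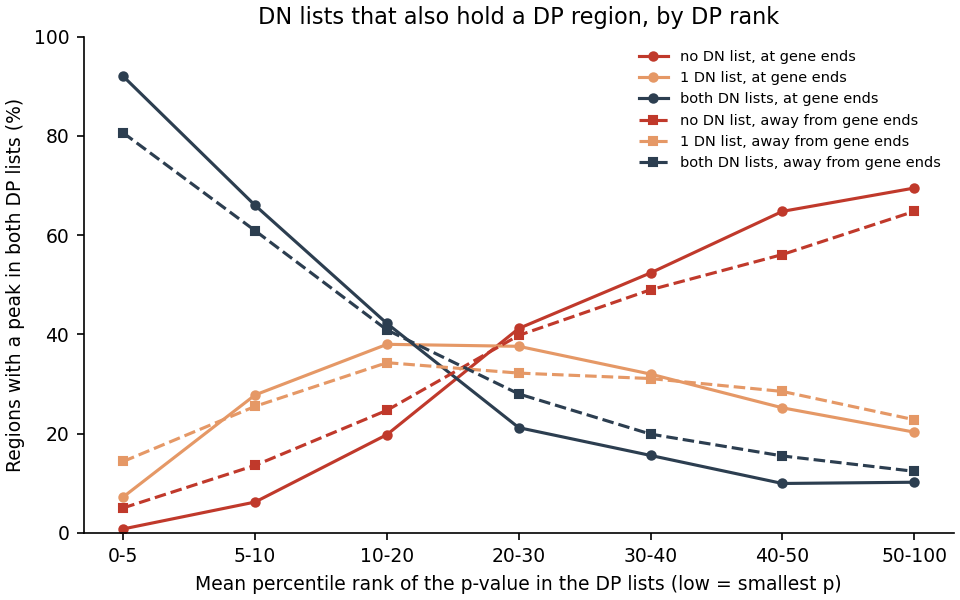
Percent of regions held by both DP lists that no DN list, 1 DN list or both DN lists also hold, by the mean percentile rank of their p-value in the DP lists, at gene ends (solid) and away from them (dashed). The share with no DN list climbs from 0.789 to 69.5% at gene ends and from 5.03 to 64.8% elsewhere.

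The 12 regions of best mean rank show what the strong end of the class holds, and all 12 lay at a gene start. In 11 of them the authors' peak value was at 1e-12 in both DP lists: these were at the starts of 4921507P07Rik, Cyp2r1, Dgcr2, Sun1, Rpsa, Clic4, Scaf1, Sap30l, Prr11, Arv1 and Ndufv3, the last 3 also within 1 kb of an end of Ska2, Ttc13 and Wdr4. Txnip was next (1e-12 and 5.10e-06). Sun1 encodes a protein of the nuclear envelope that ties the nucleus to the cytoskeleton, Rpsa a ribosomal protein, Sap30l a subunit of a histone deacetylase complex, and Ska2 a part of the spindle attachment machinery. Cyp2r1 encodes a vitamin D hydroxylase. The nearest DN peak was 800 bp away at Scaf1 and 12500 bp at Rpsa, and for the other 9 of the 11 regions it was at least 18950 bp away.

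Genes of the thymocyte lists were next. At least 1 DP-only gene-end region was found at 10.9% of the 21631 protein-coding genes in the table and at 25.4% of the 9312 genes with a gene-end region in both DP lists, and list counts are read against the second share. In the DP-stage list, 8 of 34 genes had one, 33.3% of the 24 with a region in both DP lists. In the pan-T list it was 9 of 30 genes (42.9% of 21), and in the list of the CD25+ DN stage 4 of 25 (4 of the 8 in both DP lists). The median mean rank of their regions was 32.3, 27.1 and 38.8. The lists are small, and these shares are a description of the 4 lists with no test. Without DN 1 the 3 counts were 12, 17 and 7, and without DP 1 they were 14, 15 and 10. The DP-stage count was 13 when a list had to cover 50% of a region. In the top 50% of each peak list, 12 of the 21 genes still had a DP-only gene-end region. The 9 that did not were Aqp11, Zbtb7b, Cd3d, Thy1, Zap70, Hes1, Spi1, Myb and Cd24a. In the same setting Ccr9, Cd27, Cd3e, Cd5, Lat, Plxnd1, Prkcq and Slamf1 came in, and the 3 counts were 9, 11 and 0.

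The CD8 genes carried 3 of these regions. Cd8a, the CD8 alpha chain, had one on its start at chr6:71373051-71373750, and the authors gave its peaks 1.16e-08 in DP 1 and 2.52e-05 in DP 2. Both values stood high in their lists, at ranks 6.94 and 10.7, and the nearest DN peak was 31550 bp away. Cd8b1, the CD8 beta chain next to it, had a region at each end of its span. That at the low end (chr6:71322201-71323050) had peak values of 1.62e-05 and 3.18e-05 (ranks 14.5 and 13.2). That at the high end (chr6:71337501-71338250), toward Cd8a, had 5.95e-05 and 1.31e-05 (ranks 30.9 and 8.34). Cd4 had a gene-end peak in DP 2 alone (rank 21.9), 96.5 bp from its high end, so it was not in the class. The nearest DN peak to it was 1500 bp away.

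Of the other DP-stage genes, Ets2, a transcription factor of the ETS family, had the strongest region. It covered the start at chr16:95701651-95702700 with peak values of 9.12e-06 in DP 1 and 1e-12 in DP 2, and no DN peak lay within 47500 bp. Nr4a1, an early gene of receptor signalling, had a region 198.5 bp from the start of its span (46.2 and 21.9). That region covered no start in the promoter table. Sh2d1a, which encodes the adaptor SAP, had one 85.5 bp from its low end (33.8 and 28.7). At Zbtb7b, which encodes the CD4 lineage factor ThPOK, and at Aqp11, a water channel, the DP-only region was at the far end. The start of Aqp11 was held by all 4 lists, and that of Zbtb7b by DP 2 alone. Starts of Rag1, Rag2, Themis, Rasgrp1, Plxnd1, Itm2a, Rmnd5a and Mns1, and gene ends of Tespa1, Cd69 and Egr1, were held by all 4 lists.

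The pan-T genes included parts of the receptor complex and its first kinases. Cd3g, a CD3 chain, had a DP-only region on its start (chr9:44980101-44980700) with peak values of 2.93e-07 and 2.84e-05 (ranks 7.67 and 11.9). Its neighbour Cd3d had one at the far end (85.4 and 13.9), while the start of Cd3d was held by DP 2 alone. The start of Cd3e was held by both DP lists and by DN 2, where its peak had the weak rank 77.9. Lck had peak values of 3.36e-05 and 4.94e-05 at its start, and its ranks were alike (17.8 and 18.3). Zap70 was at the weakest p of DP 1 (0.000487, rank 85.4) but at 4.58e-05 in DP 2 (16.9), so it rests on a marginal call in 1 list.

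Cd28, the costimulatory receptor, had one of the stronger regions of the list (chr1:60745951-60746650, 7.96e-06 and 1.70e-05, ranks 9.18 and 8.73). Cd6, a surface receptor, had ranks of 21.5 and 21.9, and Ubash3a, a phosphatase-like brake on receptor signalling, 28.4 and 25.8. Thy1, a surface marker of T cells (64.0 and 19.9), and Trat1, an adaptor of the receptor complex (28.4 and 40.1), were weaker. A further 10 pan-T genes, among them Cd5, Lat, Runx1 and Cd247, had gene-end regions in both DP lists and 1 DN list. Bcl11b and Txk were held by all lists.

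The 4 genes of the CD25+ DN stage had weak regions in DP 1. Hes1, a Notch target, had ranks of 53.1 and 16.9 at its high end, 720.5 bp from it. A DN 1 peak 1400 bp away lay 181.5 bp from the low end of Hes1, in a region without a DP peak. Spi1, which encodes the myeloid and early thymic factor PU.1, had 53.1 and 18.3, Myb 64.0 and 19.9, and Cd24a 64.0 and 21.9. At Cd24a a DN peak lay 250 bp away, in a neighbouring region held by all 4 lists. In the top 50% of each peak list, 0 genes of the CD25+ DN stage had a DP-only gene-end region, and with gene ends within 500 bp 1 did. The start of Il2ra was held by DN 1 at rank 6.88 and by DP 2 at rank 40.1.

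**Figure D3:**
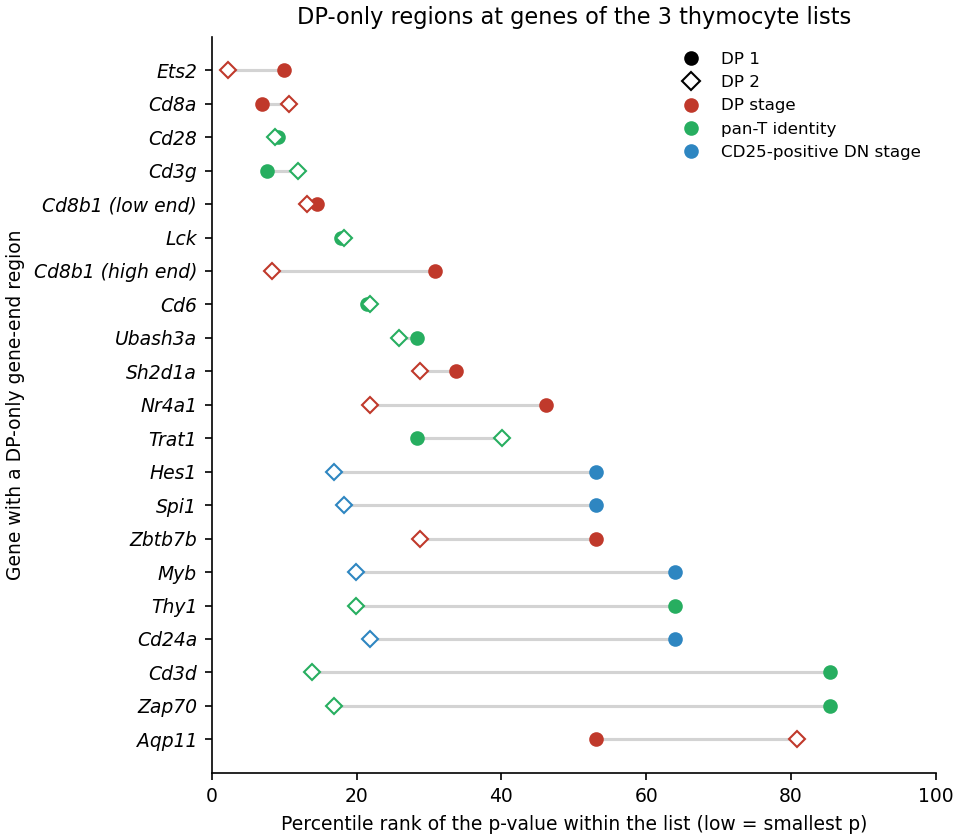
Percentile rank of the p-value in DP 1 (filled circles) and DP 2 (open diamonds) of 21 DP-only regions at genes of the 3 thymocyte lists, coloured by list; low ranks are small p, and low and high end are the ends with the smaller and larger coordinate. Ets2, Cd8a, Cd28 and Cd3g lie at ranks of 11.9 or less in both lists, and Cd3d and Zap70 lie at 85.4 in DP 1.

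Signalling genes downstream of the receptor were held as follows. Of 37 genes of Ras and calcium signalling, 12 had a DP-only gene-end region, of the 30 in both DP lists. They included the calmodulin gene Calm2, the calcineurin subunits Ppp3cb, Ppp3cc and Ppp3r1, the exchange factor Vav1, the adaptor Grb2 and the ubiquitin ligase Cbl. Some of these lay beside DN peaks. The DP-only region of Ppp3r1 abuts a start region that all 4 lists held, that of Vav1 abuts a start region that DN 1 held, and a DN 1 peak lay 450 bp from that of Calm2. With peaks within 250 bp merged, or with no DN peak allowed within 1 kb, the count was 9. Calm2 had ranks of 25.1 and 8.34, Cbl 26.4 and 10.2, and Grb2, at its far end, 22.9 and 15.7. Of 23 NF-kB pathway genes, 6 had one (28.6% of 21). Nfkbia and Nfkbie, which encode inhibitors that hold NF-kB in the cytoplasm, had a region at both ends of the gene, and the starts ranked 28.4 and 13.2 (Nfkbia) and 37.1 and 10.2 (Nfkbie). Nfkb1 (30.9 and 11.2), the kinase gene Map3k7 (21.5 and 14.8), Tab1 and, at its far end, Rela made up the rest. Without DN 1 the NF-kB count was 13.

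Of 40 cell cycle genes, 7 had a DP-only gene-end region, of the 35 in both DP lists, and 21 were held by all lists. E2f1 encodes a transcription factor that drives entry into S phase. Its region at the start of the gene span was strong in both lists (1.15e-08 and 9.10e-06, ranks 6.57 and 7.26). A DN 1 peak lay 300 bp from that region, within 1 kb of the same end. Cdc20 encodes an activator of the anaphase-promoting complex. Its region was on the start and strong in both lists (2.28e-06 and 1.31e-05, ranks 8.04 and 8.34). Ccnd3, a D-type cyclin gene needed for thymocyte division, ranked 33.8 and 16.9, and Bub1, a spindle checkpoint kinase, 37.1 and 14.8. Of 30 survival genes, 7 had one (38.9% of 18). Bcl2l11, which encodes the death protein BIM, had peak values of 9.12e-06 and 3.25e-07 at its start, and Fadd, the adaptor of death receptors, ranked 26.4 and 7.58. Of 23 genes of V(D)J recombination and end joining, 3 had one (16.7% of 18), namely Polm, Rnf8 and Lig4, and 13 were held by all lists. Without DN 1 the cell cycle, survival and V(D)J counts were 13, 10 and 5, and without DP 1 they were 10, 11 and 6. The V(D)J count was 0 in the top 50% of each peak list and 5 with 2500 bp gene ends.

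Lists of general cell machinery lay around the share of all genes. The share was 31.0% of 29 for chromatin regulators, 26.8% of 41 for ubiquitin and proteasome genes, 22.9% of 48 for splicing genes and 17.9% of 56 for the respiratory chain. Kmt2b, a histone H3 lysine methyltransferase gene, ranked 12.3 and 13.2, and Hdac3, a histone deacetylase gene, 19.6 and 6.30. Psmd13, a subunit of the proteasome cap, ranked 11.3 and 13.9, and Itch, a ubiquitin ligase gene, 13.3 and 19.9. Snrpe, a core protein of the splicing snRNPs, was among the strongest list members (8.04 and 9.48), and the start of Sf3b2, a splicing factor, ranked 15.3 and 8.34. Cox4i1 (12.3 and 19.9) and Ndufb9 (26.4 and 5.95) had the best mean ranks within the respiratory chain list, which does not hold Ndufv3, named above. Without DN 1 the 4 counts of 9, 11, 11 and 10 genes became 19, 23, 26 and 28. The splicing count was 19 in the top 50% of each peak list and 17 when a list had to cover 50% of a region. The chromatin count was 14 without DP 1 and 15 with 2500 bp gene ends.

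Of the lists for other cell types, B cell (12 genes), myeloid (16) and erythroid (10) markers had 0 genes with a DP-only gene-end region. Only 2, 0 and 2 of these genes had a gene-end region in both DP lists, so a count of 0 is near what 25.4% of them gives. Prf1, the perforin of killer cells (24.0 and 8.34), was the 1 gene of 12 among NK and innate lymphoid markers. Blk, a kinase of B and gamma-delta cells (64.0 and 21.9), was the 1 of 8 gamma-delta markers. Aire, which encodes the regulator of self-antigens in thymic epithelium, had a region on its start (19.6 and 11.2) and was the 1 of 12 stromal markers. The genes of these 3 lists with a gene-end region in both DP lists numbered 2, 3 and 1. The NK count was 3 without DP 1, without DP 2 or with 2500 bp gene ends, and the gamma-delta count was 2 without DP 2 and 0 in the top 50%. Without DP 1 there was 1 B cell and 1 erythroid gene, without DN 1 there was 1 erythroid gene, and 1 myeloid gene came in without DP 2 or with 2500 bp ends.

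**Figure D4:**
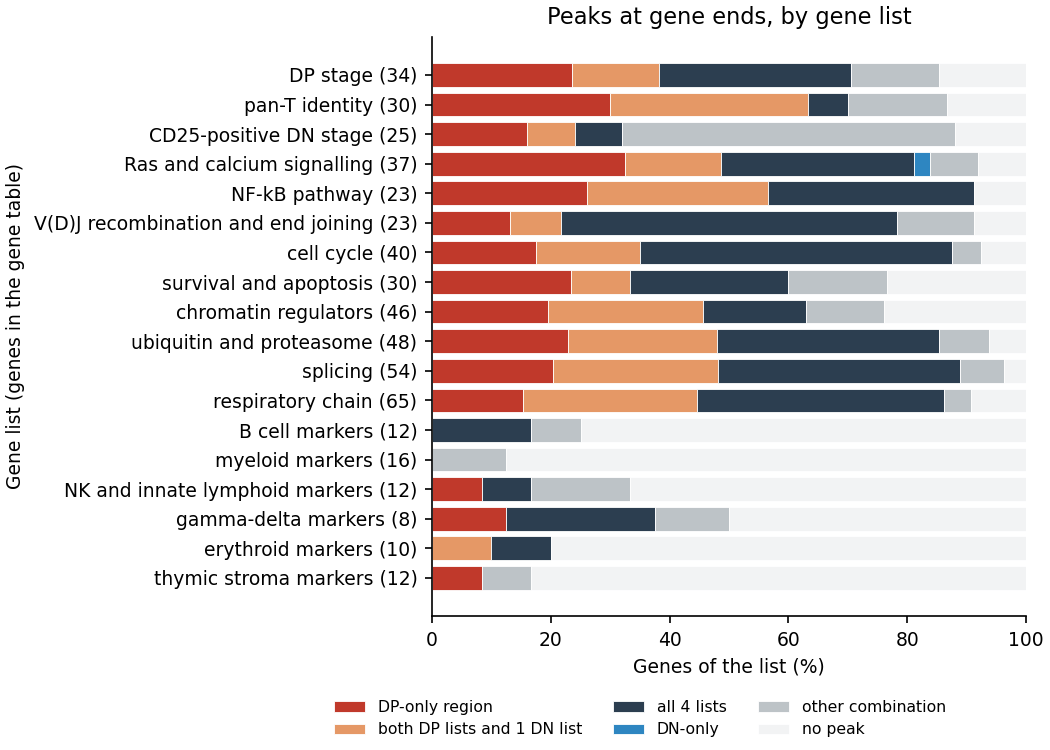
Genes of each list by what the peak lists hold at their ends, as a percent of the genes in the gene table (number in brackets); a gene with a DP-only region is counted there whatever else it has. The red share is 32.4% for Ras and calcium signalling and 23.5% for the DP stage, and 0 for B cell, myeloid and erythroid markers.

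Most genes had a single region: 2278 of 2364 had 1 and 84 had 2. Pacs2, a sorting protein gene, and Ctdsp1, a phosphatase gene acting on the tail of RNA polymerase II, had 3 each. At both ends of the span a DP-only region was found at 51 genes, among them Cd8b1, Rad51d, a gene of DNA repair, Coasy, which makes coenzyme A, and Slc25a16. At 113 genes (4.78%) another gene-end region was held by all 4 lists. The regions were not packed together: the median gap to the next one was 178 kb, and 126 neighbouring pairs lay within 10 kb.

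What these starts share beyond the rule was read from the 250 bases before 1618 covered starts of 1459 genes. Their median CpG ratio was 0.787 and 78.8% had a ratio of at least 0.6, close to the 0.783 and 79.0% of 3915 starts held by all 4 lists. Over all 21045 starts in the table the values were 0.537 and 45.2%, and for 73 DN-only starts 0.520 and 37.0%. The 7 starts of the thymocyte lists differed from the bulk of the class in level, with a median of 0.271; 71.4% of them were under 0.3, against 3.96% of the class. For 100 starts of the same 3 lists, whatever their peaks, 45.0% were under 0.3, against 32.6% of all 21045 starts. Regions are not replicates, and these shares carry no test.

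The CpG ratio was also set against starts held by all lists at a like DP rank. With a mean rank of 5 or less the median ratio was lower in the class, 0.775 for 18 DP-only starts and 0.800 for 1953 held by all lists, and from 5 to 10 it was 0.791 and 0.784. With a mean rank from 10 to 20 the median ratio was 0.821 for 421 DP-only starts and 0.774 for 845 held by all lists. With a rank from 20 to 30 it was 0.801 for 432 and 0.698 for 204, and from 30 to 40 it was 0.743 for 285 and 0.627 for 78. Above 40 the DP-only starts again had the higher median.

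Of 16 motifs, CCAAT, bound by the factor NF-Y, differed the most between DP-only starts (27.1%) and starts held by all lists (46.6%). It was in 37.7% of starts with 1 DN list, 35.6% of all starts and 26.0% of the 73 DN-only starts. The low share was thus not particular to the DP-only class. The gap between DP-only starts and those held by all lists was not even over peak strength. CCAAT was in 56.5% of the 1953 starts held by all lists with a mean rank of 5 or less, and in 14 of the 18 DP-only ones there. From rank 10 to 20 the shares were 29.2 and 33.5%, and from 20 to 30 they were 26.6 and 30.9%. The gap was wider from 30 to 40 (22.1 and 37.2%) and from 40 to 50 (22.9 and 44.0%, the latter of 25 starts), and above 50 the shares were 26.2 and 33.3%. The ETS promoter site CCGGAA, which overlaps the ETS core, was in 29.3% of DP-only starts, 27.7% of starts held by all lists and 15.1% of all starts. GGGCGG was in 63.3, 66.1 and 43.1%, the CRE core TGACGT in 10.7, 13.5 and 7.44%, and TATAAA in 5.87, 5.34 and 11.7%. TGTGGT was in 10.1, 9.27 and 12.2% and CAGCTG in 11.3, 10.1 and 12.2%, so both were less common in the class than over all starts.

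The class lay in gene-rich parts of the genome. The median number of protein-coding genes with the lower end of their span within 500 kb was 21 for DP-only gene-end regions, 17 with 1 DN list, 11 for those held by all lists and 6 for DN-only ones. With 0 to 9 genes nearby, 314 of 2494 gene-end regions in both DP lists were DP-only (12.6%), and with 10 to 15 genes 393 of 1961. With 16 to 26 genes the share was 32.7%, and with 27 to 73 genes 36.7%. Peaks were also weaker in the same order, with median mean ranks of 11.0, 12.9, 15.8 and 17.6. Within the rank range from 10 to 20 these 4 sets gave 10.1, 16.2, 25.5 and 28.8%, and from 20 to 30 they gave 25.8, 34.0, 48.6 and 53.3%. The order held between the sparsest and the densest set in each of the 7 rank ranges.

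By chromosome, the share was highest on chromosome 11, where 265 of 597 gene-end regions in both DP lists were DP-only (44.4%), followed by chromosomes 15 (36.8%), 19 (34.6%) and 17 (33.4%). It was lowest on chromosomes 18 (11.4%), X (14.3%) and 3 (15.8%). On some of these chromosomes the lists themselves differed in their share of peaks. Chromosome 11 held 3.17 and 2.50% of all peaks of DN 1 and DN 2 and 5.15% of those of DP 1 and 4% of those of DP 2, and chromosome 19 held 1.74 and 1.29% against 2.28 and 1.76%. On chromosome 3 the order was the other way, with 7.52 and 8.01% in DN against 6.02 and 6.60% in DP lists. The DN and DP values do not overlap on chromosomes 11, 15, 19, 18 and 3. Nor do they overlap on chromosomes 1, 6, 7, 8, 9, 10, 12, 14 and 16, so this is common to most chromosomes. The values overlap on chromosomes 2, 4, 5 and 13. They also overlap on chromosome 17, where DP 2 (3.91%) lay between DN 2 (3.77%) and DN 1 (4%). On X, DN 2 and DP 2 were both at 3.14%. Whether the cell stage, the read depth or the library preparation sets this was not tested.

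**Figure D5:**
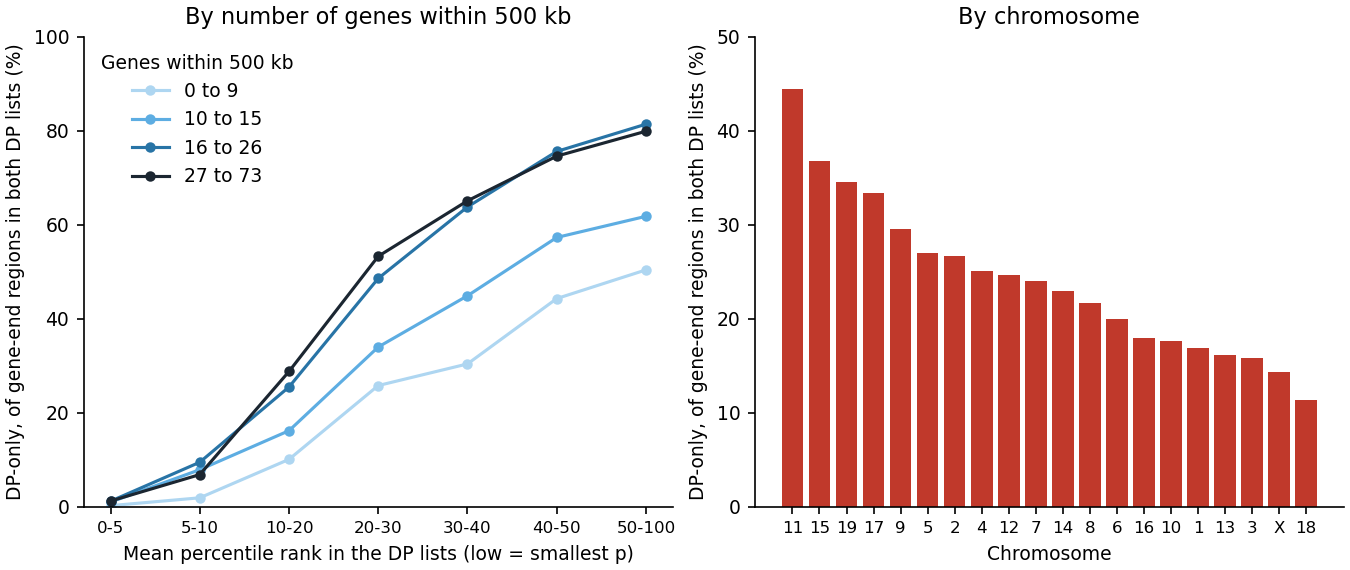
Percent of gene-end regions in both DP lists that are DP-only, on the left by mean percentile rank in the DP lists and by the number of genes within 500 kb, on the right by chromosome. The densest set (27 to 73 genes) runs from 1.23 to 79.9% and the sparsest (0 to 9 genes) from 0.251 to 50.4%; chromosome 11 stands at 44.4% and chromosome 18 at 11.4%.

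Peaks elsewhere in the spans of the 2364 genes were also fewer in DN lists, away from the gene ends that chose them. Per 10000 peaks of a list, 255 and 126 lay there in DN 1 and DN 2 and 438 and 331 in DP 1 and DP 2, so the groups do not overlap. The means were 190 ± 91.3 (SD, n = 2) and 385 ± 75.9, a ratio of 2.02. In the spans of 4587 genes held by all lists the ratio was 1.06, in all genes 1.11, and in 170 genes with a DN-only gene-end region 0.622. These peaks come from the contrast that chose the genes, so no test is given; an exact permutation test of 2 against 2 lists cannot go below p = 0.33. The difference of 195 was 467 without DN 1 and 310 without DP 2, and with 2500 bp gene ends it was 331. These settings chose the genes anew, with 4588, 3217 and 3042 genes against 2364. The differences are thus counted over more spans and cannot be compared in size with 195. From 10 to 100 kb around the regions the ratio was 2.11, against 1.15 around gene-end regions held by all lists and 1.82 around DP-only regions away from gene ends. Inside the gene, 364 of the 2364 genes (15.4%) had a DP-only region away from the ends, against 11.1% of the genes held by all lists and 10.1% of all genes, and 1.69% had a DN-only one, against 5.67 and 3.93%.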

How the data were processed

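Peak lists of 4 samples were used, 1 per sample. Per the submitters' processing notes, reads were placed on mm10 and Bowtie2 and Picard were among the tools; the caller is known only from the name PeakDEck, with settings not given in the sources used here. The deposited p-value of each peak is the authors' own and served only to rank peaks within a list. Peaks sharing 1 bp were merged into regions. Gene spans came from the RefSeq table of GRCm38.p6 (21631 protein-coding genes, no strand), and strand and sequence from its promoter table (17274 of these genes; chromosome 18 is not in it). Motifs and the CpG ratio (CpG times length over C times G) were read from 250 bases before each start. The members, the 18 gene lists (518 of 522 genes in the table) and the 16 motifs were chosen with earlier results of these data known. Named were the 12 regions of best mean DP rank, all members at genes of the 3 thymocyte lists, up to 6 per other list by rank, genes with several members, and 3 regions on each side of the limits; some genes that this rule names are not reported here. Shares were compared as descriptions; the Wilson interval in the alternatives covers counting only. The steps were tested on simulated lists. Replicate numbers were tried as pairs. Python 3.11.15, numpy 2.4.6 and pandas 2.3.3 were used.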

Additional observations from a re-analysis of the deposited data

How the results depend on the processing

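Limiting every list to the shortest length gave 1905 DP-only gene-end regions, merging within 250 bp 1994, and the top 50% of each list 2113, of which 1796, 1980 and 1432 of the 2111 regions were kept. The last setting kept 12 of the 21 genes of the 3 thymocyte lists and brought in others, among them Cd3e and Lat. The count ranged from 2357 to 4156 when each list was left out in turn, the genes from 2628 to 4588 and the listed genes from 112 to 193, against 100. Each such setting removes 1 condition of the rule, so a rise was built in, and 99.1 to 100% of the 2111 regions were kept. The share of gene-end regions that were DP-only (17.2%) was 20.5% in the top 50%, 21.5% when a list had to cover 50% of a region, 16.3% with 2500 bp gene ends, 15.6% with no DN peak within 1 kb, and 19.6 to 35.3% with a list left out. The share at a start (91.0%) was 93.6% in the top 50%, 95.3% with 500 bp and 85.0% with 2500 bp ends, and 83.4 to 93.3% with a list left out. The difference in peaks elsewhere in the spans (195 per 10000) was 331 with 2500 bp ends, 285 with spans widened by 10 kb and 143 to 467 with a list left out. Except for the widened spans, these settings chose the genes anew, so the differences cover more genes than the main one. Pairing equal replicate numbers gave differences of 184 and 205. Their mean equals the main 195 by arithmetic, so it is no check, and nothing in the labels says that the numbers pair the samples. In the top 50% the starts with a CpG ratio of at least 0.6 were 81.3% and those with CCAAT 29.7%. Apart from the built-in rise, the cause of these moves was not tested. For single gene lists and the CpG median, 168 further values stayed within 1.5 times of the reported one and 34 counts did not. Read depth, which the lists do not give, limits every absence.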

Other observations

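Gene families picked by symbol after the data were seen gave the following. They are read beside the 10.9% of all genes, and the 25.4% of genes with a region in both DP lists, that have a DP-only gene-end region. Of 8 Gimap genes, GTPases of lymphocyte survival, 5 had a region in both DP lists, of which 2 were also held by 1 DN list. The other 3 (Gimap1, Gimap6 and Gimap8) had a DP-only gene-end region, and 0 were held by all lists. Of 397 Zfp zinc finger genes 36 had one, 14.9% of the 241 with a region in both DP lists, and 153 were held by all lists. Cytosolic ribosomal protein genes gave 21 of 101 (27.3% of 77) and mitochondrial ribosomal protein genes 19 of 78 (29.7% of 64). Solute carrier genes gave 45 of 375 (27.6% of 163). Of 1110 olfactory receptor genes 2 had one, of the 5 with a region in both DP lists, and 999 had no gene-end peak.

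Along the 250 bases before the start, CCAAT was most frequent from 50 to 100 bp in each of 3 sets, in 10.1% of DP-only starts, 22.9% of starts held by all lists and 14.0% of all starts. From 200 to 250 bp the values were 4.39, 8.86 and 6.94%.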
